A study of Mus musculus with 6 samples.

Results

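The VEGF family genes Flt1, Kdr, Flt4, Vegfa, Vegfb, Vegfc and Pgf were followed in auditory cortex of C57 mice that overexpressed WNT3, against WNT3 control mice. The 7 genes are 3 receptors and 4 ligands. They were chosen by gene symbol from the 50559 genes listed in the deposited tables, and all 7 were found. RNA was sequenced in 6 libraries, 3 labelled WNT3 overexpressing and 3 labelled WNT3 control, and the study asked what overexpression of this secreted Wnt ligand changes in the cortex. The labels do not say how Wnt3 was overexpressed, in which cells, what the control mice received, how old the mice were, or whether the replicates are separate animals. The p-values therefore measure only the spread between these libraries, which may be technical.

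Vascular endothelial growth factors are secreted dimers that bind receptor tyrosine kinases on endothelial cells, the cells that line blood vessels. Vegfa binds Kdr, the main signalling receptor for vessel growth and permeability, and binds Flt1 more tightly although the Flt1 kinase is weak, so that Flt1 and its soluble form can act as a trap for Vegfa. Vegfb and Pgf bind Flt1 and not Kdr, and Vegfc is the main ligand of Flt4, the receptor best known from lymphatic vessels and from sprouting capillaries. In the adult brain Flt1 and Kdr mark endothelium, whereas Vegfa is made largely by glia and neurons.

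Total counts were 54642400 to 71803617 in the overexpression libraries and 42614588 to 55859274 in the controls. Wnt3, the gene the labels name, stood at 98.8, 7.45 and 8.71 CPM in overexpression libraries 1 to 3 and at 2.70, 1.91 and 1.74 CPM in controls 1 to 3 (CPM, counts scaled to the TMM-adjusted size of each library). The groups were apart, as the labels say, with a log2 fold change (overexpression over control) of 4.18 ± 1.02 (SE). Wnt3 itself did not pass an adjusted p of 0.05 (unadjusted p = 0.00328, adjusted p = 0.822, edgeR). Most of the Wnt3 mean came from overexpression library 1. Control 2 stood apart in another way. Its reads came from shorter transcripts, with a mean transcript length implied by the ratio of counts to TPM (a level scaled for transcript length and library size) of 1691 bases, against 2400 to 2495 bases in the overexpression libraries and 2400 and 2409 bases in the other controls. Values without control 2 are given beside the results of the family that moved most without it. The extraction protocol speaks of striatum although the tissue label is auditory cortex. Tbr1, a transcription factor of deep-layer cortical neurons, ran from 109 to 132 CPM in overexpression and from 101 to 127 CPM in controls, and Cux2, one of upper-layer neurons, from 108 to 146 CPM in overexpression and from 102 to 134 CPM in controls. Summed striatal markers, among them Drd1, Drd2 and Adora2a, with Ppp1r1b and Penk the highest, ran from 212 to 287 TPM in overexpression and from 218 to 415 TPM in controls. Over all genes tested by edgeR, 49.3% had a log2 fold change above 0. Of the 10 striatal markers, 2 were above 0 and 8 below. Their median was -0.52, or -1.06 without overexpression library 3 and -0.091 without control 3. Of 10 cortical markers, 6 were above 0 and 4 below, with a median of 0.060. Only Lamp5 had an unadjusted p under 0.05 by edgeR. It was lower in overexpression, where 2.8% of all tested genes were lower at that p. DESeq2 called 1 of the 10, against 0.25% of its genes. Whether the dissected region differed between the groups was not tested.

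The promoters of Flt1 and Kdr are shown because these receptors share Vegfa as ligand and lie on the same chromosome, and yet had different values in the comparison that follows. Both are the 250 bases before the RefSeq transcription start, from build GRCm38.p6, 5′ to 3′ on the minus strand, chr5:147726012-147726261 for Flt1 and chr5:75978456-75978705 for Kdr. Capitals mark a cAMP response element (TGACGTCA) and a TATA box (TATAAA) in Flt1, and the hypoxia response core (CGTG preceded by A or G, either strand) in Kdr.
Flt1: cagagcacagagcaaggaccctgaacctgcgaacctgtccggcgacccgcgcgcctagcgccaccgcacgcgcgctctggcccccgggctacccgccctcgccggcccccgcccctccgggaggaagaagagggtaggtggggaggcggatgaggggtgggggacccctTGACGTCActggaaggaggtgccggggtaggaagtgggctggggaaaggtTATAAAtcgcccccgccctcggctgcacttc
Kdr: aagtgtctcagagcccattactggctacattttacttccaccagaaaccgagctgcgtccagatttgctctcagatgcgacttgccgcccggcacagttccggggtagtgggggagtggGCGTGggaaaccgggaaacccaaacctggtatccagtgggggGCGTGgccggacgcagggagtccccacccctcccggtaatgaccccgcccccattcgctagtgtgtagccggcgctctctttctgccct

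The cAMP response element of the Flt1 promoter starts at base -81 from the transcription start, and its letters occur on either strand in 1.55% of 32851 RefSeq promoters of this length. The TATA box of Flt1 starts at base -31, and 12.4% of the promoters hold these letters. The Kdr window holds 2 hypoxia response cores, the first at base -131, and the Flt1 window holds 1 in lower case at base -184; 38.6% of promoters hold at least 1. The TCF/LEF core through which canonical Wnt signalling acts (CTTTG followed by A or T at each of the next 2 bases, either strand) is in none of the 9 windows that RefSeq gives for the 7 genes, and is in 14.8% of all promoters. These matches describe letters in a short window and say nothing about the binding of a factor.

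Per transcript length, Vegfa was the most abundant member and Flt1 by far the most abundant receptor. Over all 6 libraries Vegfa averaged 66.4 ± 23.3 TPM, Vegfb 34.7 ± 11.7 TPM and Flt1 27.1 ± 11.9 TPM (SD, n = 6). Kdr followed at 3.28 ± 0.84 TPM, then Vegfc at 2.32 ± 0.65 TPM, Pgf at 1.62 ± 0.74 TPM and Flt4 at 1.23 ± 0.66 TPM. Vegfa exceeded Vegfb in 3 of 3 overexpression libraries and in 2 of 3 controls, control 2 being the exception. Flt1 exceeded Vegfb in 2 of 3 overexpression libraries and in 0 of 3 controls. The step from Flt1 to Kdr was clear in all 6 libraries. Kdr exceeded Vegfc in 5 of the 6, control 2 being the exception. Vegfc exceeded Pgf in 5 of 6 libraries, and Flt4 exceeded Pgf in 2. Each of these neighbours thus changed places in at least 1 library, and the order below Flt1 was not tested.

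**Figure D1:**
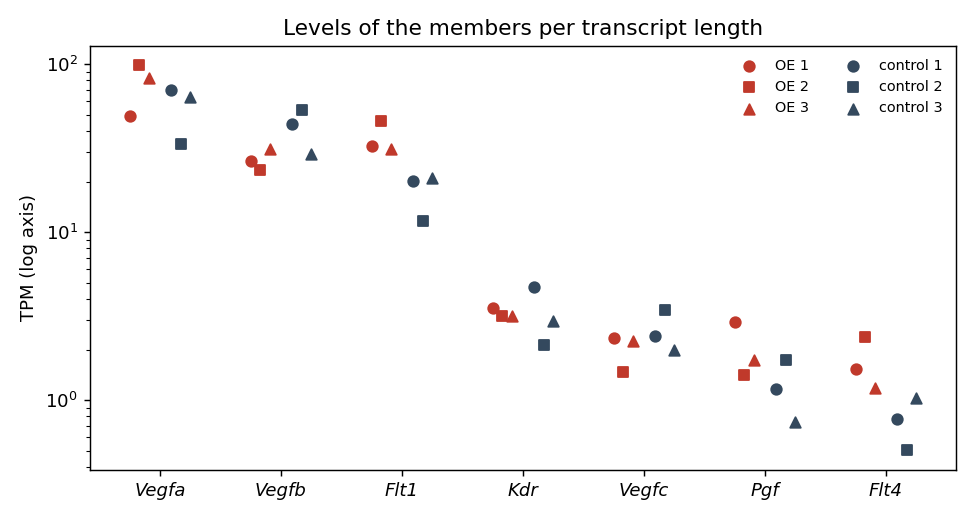
TPM of the 7 members (log axis) in each library, red for overexpression (OE) and dark blue for control, ordered by their mean over all 6 libraries. Vegfa, Vegfb and Flt1 lie above 11 TPM in every library and the other members below 5 TPM.

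Between overexpression and control, Flt1 and Flt4 were the members whose lowest overexpression library lay above the highest control, Kdr and Vegfa had groups that overlapped, and the lower mean of Vegfb leaned on control 2. No member passed an adjusted p of 0.05 (0 of 7) by edgeR's quasi-likelihood F test, Benjamini-Hochberg adjusted across the 22360 tested genes, of which 0% passed, and limma voom and DESeq2 also called 0 members, DESeq2 against 0.25% of its genes. An unadjusted p under 0.05 was reached by 3 members (Flt1, Flt4 and Vegfb), against 4.65% of all tested genes. Of these, 2 were higher and 1 lower, where 1.86% and 2.8% of all tested genes were. A log2 fold change above 0 was found for 4 of 7 members and for 49.3% of all tested genes. With 1 library left out, between 1 and 3 members had an unadjusted p under 0.05; the share of all genes was 2.68%, 2.74% and 3.57% without overexpression libraries 1, 2 and 3, and 6.97%, 5.87% and 7.61% without controls 1, 2 and 3. Groups were apart in the higher direction for 2 members, against 5.89% of all tested genes, and in the lower direction for 0, against 6.04%. With 7 genes these counts are too small to set the family apart from the rest, and the members were chosen with earlier results for Flt1 known. In bulk tissue a change in the number of endothelial cells and a change in RNA per cell cannot be told apart.

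**Figure D2:**
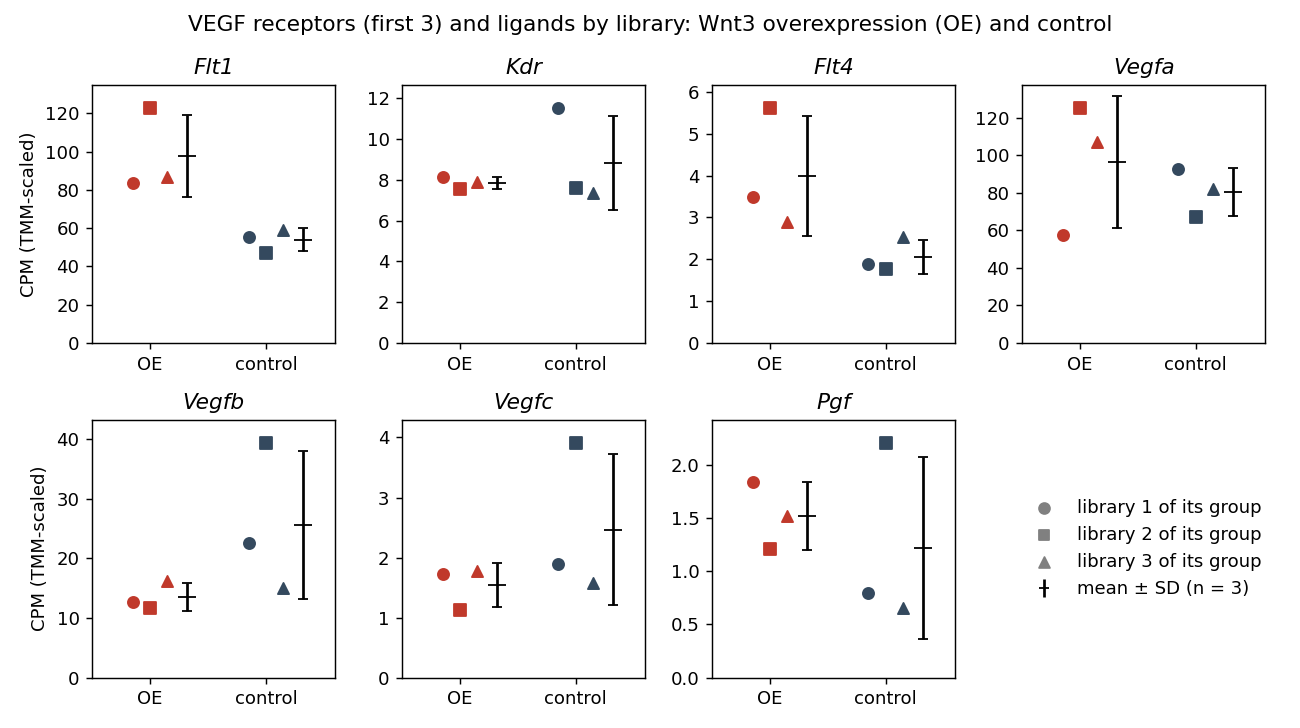
CPM of each member in each library, overexpression (OE) left and control right, with marker shape for the library number within its group and mean ± SD (n = 3) beside the points. Flt1 and Flt4 groups do not overlap; control 2 (square) is the highest library for Vegfb, Vegfc and Pgf.

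Flt1 encodes the high-affinity receptor of Vegfa, Vegfb and Pgf. It lies on chromosome 5, positions 147561604 to 147726011 on the minus strand of mm10 (GENCODE M21, gene ENSMUSG00000029648.13), with 30 exons in its longest transcript. Its level was 83.7, 123 and 86.9 CPM in overexpression libraries 1 to 3, against 55.4, 47.2 and 59.2 CPM in controls 1 to 3. Every overexpression library lay above every control, with overexpression library 2 the highest and control 2 the lowest. This gave a log2 fold change of 0.86 ± 0.20 (SE), with a 95% interval of 0.39 to 1.32, or 1.81-fold. The unadjusted p was 0.00267 and the adjusted p 0.822 by edgeR, and DESeq2 gave an adjusted p of 0.0985. Leaving out overexpression library 2 gave 0.66, the lowest value, leaving out overexpression library 1 gave 0.96, the highest, and leaving out control 2 gave 0.77.

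Because Flt1 also has short, soluble forms, the ratio of counts to TPM was used to ask how long the counted transcripts were. The mean Flt1 transcript length implied by this ratio was 6571, 6611 and 6647 bases in the overexpression libraries and 6606, 6653 and 6671 bases in the controls. The groups overlap. All 6 values lie between the longest annotated Flt1 transcript, of 6895 bases and 30 exons, and the next, of 6292 bases and 13 exons, so they do not tell these 2 transcripts apart. The deposited tables are per gene, so the soluble form itself was not measured.

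Kdr encodes the main signalling receptor and lies on chromosome 5, positions 75932827 to 75978458, minus strand (ENSMUSG00000062960.10). Its level was 8.15, 7.55 and 7.87 CPM in overexpression libraries 1 to 3 and 11.5, 7.61 and 7.36 CPM in controls 1 to 3. The overexpression libraries were close together and lay within the range of the controls, of which control 1 was the highest. Kdr had a log2 fold change of -0.17 ± 0.24 (SE; adjusted p = 0.856, edgeR), with a 95% interval of -0.72 to 0.39, so a change of the size seen in Flt1 lies outside it. The sign turned without control 1, where the log2 fold change was 0.073.

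Flt4, the receptor of Vegfc, lies on chromosome 11, positions 49609263 to 49652739, plus strand (ENSMUSG00000020357.3). It was counted at a low level, 3.50, 5.61 and 2.88 CPM in overexpression libraries 1 to 3 and 1.88, 1.78 and 2.53 CPM in controls 1 to 3. The groups did not overlap, but the lowest overexpression library and the highest control lay close together. For Flt4 the log2 fold change was 0.95 ± 0.34 (SE; unadjusted p = 0.0235, adjusted p = 0.822, edgeR). It was 0.63 without overexpression library 2, where the unadjusted p was 0.112, and 0.86 without control 2, where it was 0.0408 (edgeR). Of 5 tested lymphatic markers, 2 had a log2 fold change above 0. The list, led by Pdpn and Prox1, summed to 21.6 to 27.5 TPM in overexpression and 20.9 to 22.8 TPM in controls. How much of this sum came from lymphatic endothelium was not tested. Over all tested genes, 49.3% had a log2 fold change above 0 and 4.65% an unadjusted p under 0.05 by edgeR. Lyve1, a hyaluronan receptor of lymphatic endothelium, was at 0.626 ± 0.225 CPM in overexpression and 0.238 ± 0.241 CPM in controls (SD, n = 3), with groups that overlapped. Ackr2, a chemokine scavenger, was the 1 with an unadjusted p under 0.05, at 5.80, 6.91 and 2.51 CPM in overexpression libraries 1 to 3 and 2.67, 1.89 and 2.29 CPM in controls 1 to 3.

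The receptors were then set against the RNA level of endothelial markers in each library, which does not give a level per endothelial cell. Of 35 endothelial markers, all tested, 28 had a log2 fold change above 0, as 49.3% of all tested genes had. The marker median was 0.49 against -0.0069 over all tested genes, or 0.22 without overexpression library 2, 0.39 without control 2 and 0.57 without overexpression library 3. An unadjusted p under 0.05 by edgeR was reached by 9 of the markers, all higher, where 1.86% of all tested genes were. By edgeR 0 passed over all genes. DESeq2 called 1, Vwf, which encodes the von Willebrand factor, against 0.25% of its genes. Pecam1, an adhesion molecule of endothelial junctions, was at 25.4 ± 5.65 CPM in overexpression and 17.3 ± 0.72 CPM in controls (SD, n = 3), whereas Cldn5, the main tight junction claudin of brain endothelium, was at 13.2, 13.3 and 11.3 CPM in overexpression libraries 1 to 3 and 8.89, 26.0 and 7.26 CPM in controls 1 to 3. The summed level of the list was 1083, 1343 and 1056 TPM in overexpression libraries 1 to 3 and 877, 989 and 835 TPM in controls 1 to 3. Only 3 of the 35 markers had a larger log2 fold change than Flt1, and 3 a larger one than Flt4, while 30 had a larger one than Kdr.

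Relative to the median of these markers, the groups were apart for both, with Flt1 higher and Kdr lower in overexpression. The difference of log2 CPM between Flt1 and the marker median was 2.93, 3.09 and 2.93 in overexpression libraries 1 to 3 and 2.64, 2.44 and 2.72 in controls 1 to 3, a difference between group means of 0.39. For Kdr it was -0.42, -0.92 and -0.53 in overexpression libraries 1 to 3 and 0.37, -0.18 and -0.28 in controls 1 to 3, a difference between group means of -0.59. Both had an exact two-sided permutation p of 0.1, the smallest that 3 libraries against 3 can give. For Flt4 the groups overlapped, with a difference of 0.45 (exact permutation p = 0.2). Over the 4 tests of this family, that of Flt1 over Kdr included, the Benjamini-Hochberg adjusted p from the exact permutation tests was 0.133 for Flt1, Kdr and their ratio and 0.2 for Flt4.

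The ratio of Flt1 to Kdr combined both patterns. In TPM, Flt1 exceeded Kdr 9.24, 14.4 and 9.81 times in overexpression libraries 1 to 3 and 4.29, 5.51 and 7.12 times in controls 1 to 3. The groups were apart, and the mean log2 ratio was 3.45 ± 0.35 in overexpression and 2.46 ± 0.37 in controls (SD, n = 3), a difference of 0.99 (exact two-sided permutation p = 0.1). Without single libraries the difference ran from 0.79 (without overexpression library 2) to 1.17 (without control 3).

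**Figure D3:**
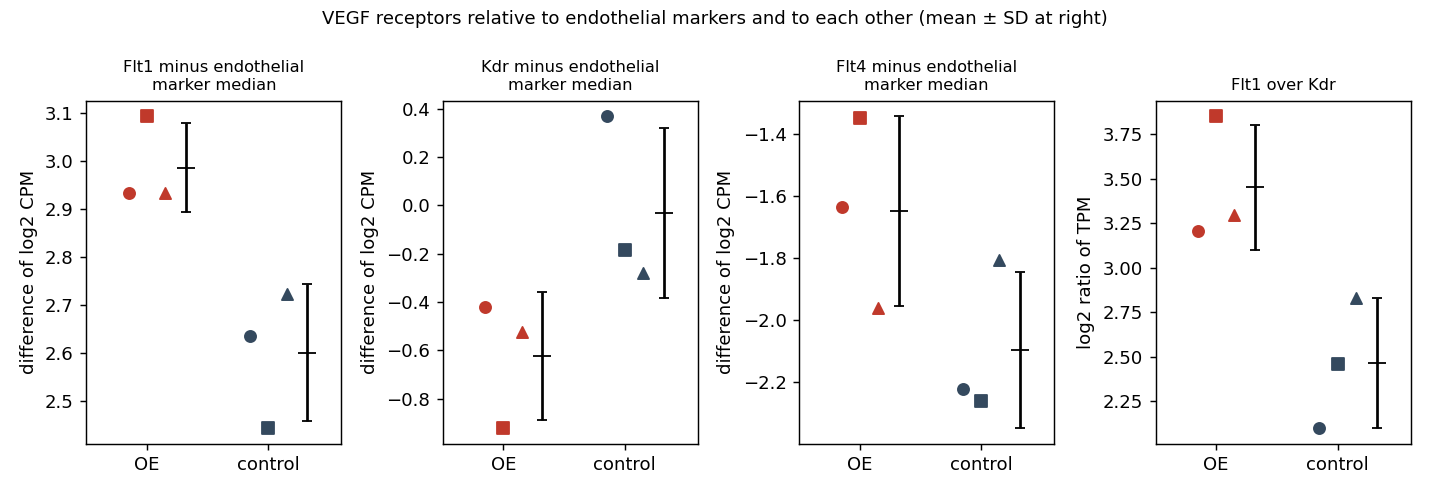
The first 3 panels show log2 CPM of Flt1, Kdr and Flt4 minus the median log2 CPM of 35 endothelial markers, and the last the log2 ratio of Flt1 to Kdr in TPM, for overexpression (OE, left) and control (right), with mean ± SD (n = 3). Flt1 relative to the markers and Flt1 over Kdr are higher, and Kdr relative to the markers is lower, in each overexpression library than in any control.

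Among the ligands, Vegfa, the chief endothelial growth factor and a hypoxia target, varied more between overexpression libraries than between the groups. It lies on chromosome 17, positions 46016993 to 46032369, minus strand (ENSMUSG00000023951.17). Its level was 57.3, 125 and 107 CPM in overexpression libraries 1 to 3 and 92.8, 67.2 and 81.9 CPM in controls 1 to 3. Overexpression library 1, the library with the most Wnt3, was the lowest of all 6, and overexpression library 2 the highest. Its log2 fold change was 0.26 ± 0.29 (SE; adjusted p = 0.835, edgeR), and 0.033 without overexpression library 2 or 0.53 without overexpression library 1, where the groups were apart (unadjusted p = 0.0477, adjusted p = 0.980, edgeR).

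Vegfb, a Flt1 ligand linked to fatty acid uptake and neuronal survival, lies on chromosome 19, positions 6982473 to 6987651, minus strand (ENSMUSG00000024962.13). Its level was 12.7, 11.7 and 16.2 CPM in overexpression libraries 1 to 3 and 22.6, 39.3 and 15.1 CPM in controls 1 to 3. Control 3 lay below overexpression library 3, so the groups overlapped, and control 2 was far above the rest. Vegfb had a log2 fold change of -0.92 ± 0.34 (SE; unadjusted p = 0.0262, adjusted p = 0.822, edgeR). It was -0.48 without control 2 (unadjusted p = 0.0665, edgeR), and on the log2(TPM + 1) scale, which divides by transcript length, it was -0.59. The median over all genes was itself 0.14 on that scale. Less this median, Vegfb was at -0.73, against -0.92 less the median in the main fit. With a mean implied transcript of 1212 to 1232 bases over the 6 libraries, Vegfb is among the shorter transcripts, and control 2 is the library whose reads came from shorter transcripts. The receptors are long, at 6653 bases for Flt1, 5849 for Flt4 and 5903 for Kdr in control 2. Control 2 was the lowest library for Flt1 and Flt4, but for Kdr it lay between the other controls. The part of transcript length in the Vegfb, Flt1 and Flt4 differences was not tested.

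Vegfc, the lymphangiogenic ligand of Flt4, lies on chromosome 8, positions 54077606 to 54187096, plus strand (ENSMUSG00000031520.6). It was at 1.73, 1.12 and 1.78 CPM in overexpression libraries 1 to 3 and 1.90, 3.91 and 1.58 CPM in controls 1 to 3. Control 2 was again the highest library and the other 5 overlapped. For Vegfc the log2 fold change was -0.67 ± 0.42 (SE; adjusted p = 0.822, edgeR), and -0.17 without control 2.

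Pgf, the placental growth factor, which among the VEGF receptors binds Flt1, lies on chromosome 12, positions 85166635 to 85177790, minus strand (ENSMUSG00000004791.7). It was counted at 103, 75 and 108 reads in overexpression libraries 1 to 3 and 34, 120 and 33 reads in controls 1 to 3, or 1.84, 1.20 and 1.51 CPM in overexpression and 0.798, 2.20 and 0.653 CPM in controls. Control 2 was the highest of all libraries and the other controls the lowest. For Pgf the log2 fold change was 0.31 ± 0.51 (SE; adjusted p = 0.868, edgeR). Without control 2 it was 1.07, with groups apart (unadjusted p = 0.0153, where 5.87% of genes tested without that library had an unadjusted p under 0.05; adjusted p = 0.744, edgeR). The mean Pgf transcript length implied by counts and TPM took 2 levels that did not follow the groups. It was 1603 bases in overexpression library 1 and 1635 in control 1, and between 2089 and 2113 bases in the other 4 libraries.

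**Figure D4:**
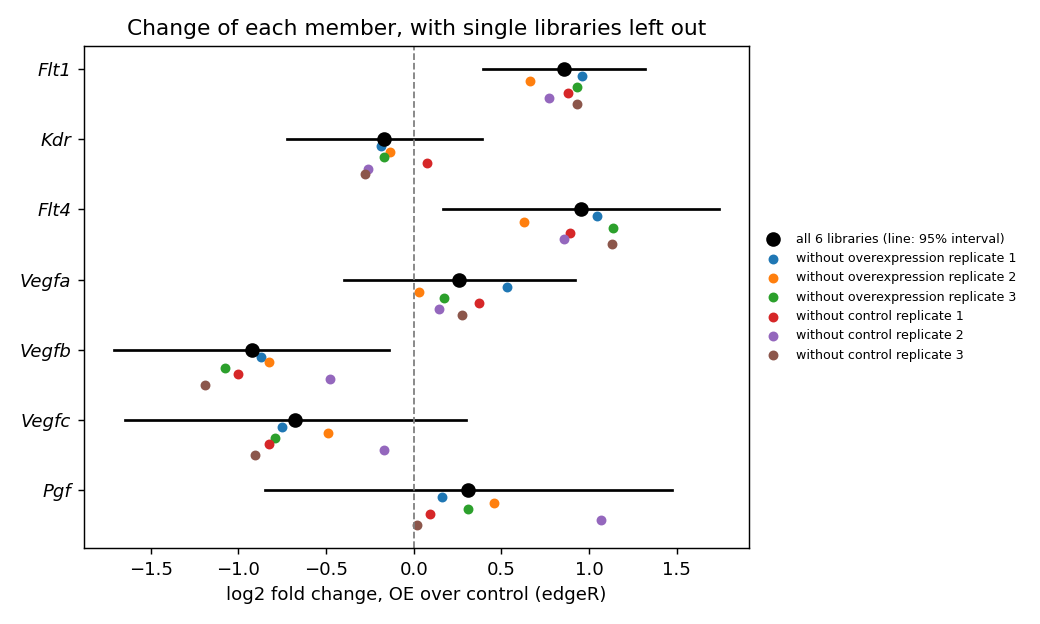
log2 fold change of each member, overexpression over control, from edgeR with all 6 libraries (black, with its 95% interval) and with each library left out in turn (colours). Flt1 and Flt4 stay above 0 and Vegfb and Vegfc below 0 in each; without control 2 (purple), Vegfb and Vegfc move toward 0 and Pgf away from it.

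Other ligands, receptors and partners of the VEGF system were described by list. The shares over all tested genes, to be set beside each list that follows, were 49.3% with a log2 fold change above 0 and 4.65% with an unadjusted p under 0.05 (edgeR). Vegfd, the second Flt4 ligand, was at 5.35, 2.47 and 3.61 CPM in overexpression libraries 1 to 3 and 1.78, 4.14 and 1.58 CPM in controls 1 to 3, with groups that overlapped. The list of co-receptors and receptor partners with Vegfd had 7 of 9 members with a log2 fold change above 0, a median of 0.11 (0.037 without control 2), and 0 at an unadjusted p under 0.05. Ptprb, the endothelial phosphatase that restrains Kdr and Tek, was at 55.0, 69.2 and 57.3 CPM in overexpression libraries 1 to 3 and 52.8, 20.9 and 51.3 CPM in controls 1 to 3. Its groups were apart, but controls 1 and 3 lay just under the overexpression libraries and only control 2 was far below them. Its log2 fold change was 0.54 ± 0.33 (SE; adjusted p = 0.822, edgeR). Cdh5, the junctional cadherin that binds Kdr, overlapped between the groups, at a log2 fold change of 0.60 ± 0.33 (SE).

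Of 33 genes for proteins that carry the VEGF receptor signal, 32 were tested, 17 with a log2 fold change above 0 and 15 below, with a median of 0.044. Nos3, the endothelial nitric oxide synthase, alone among them had an unadjusted p under 0.05 (unadjusted p = 0.0346, adjusted p = 0.822, edgeR). Its level was 8.36, 8.98 and 7.55 CPM in overexpression libraries 1 to 3 and 5.91, 6.13 and 4.92 CPM in controls 1 to 3, with groups apart. Nos3 is itself an endothelial gene. Akt2, a kinase of the survival arm, had means of 74.0 ± 16.5 CPM in overexpression and 95.2 ± 3.16 CPM in controls (SD, n = 3; adjusted p = 0.822, edgeR). The highest overexpression library, at 91.4 CPM, lay just under the lowest control, at 91.6 CPM, and in TPM the groups overlapped.

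Genes that VEGF is known to induce in endothelial cells had values in both directions, 16 above 0 and 12 below of 28 tested, and their median was 0.090 on the log2 scale, or -0.018 without control 1 and 0.33 without control 3. An unadjusted p under 0.05 was reached by 3. Adm, the vessel peptide adrenomedullin, was higher on average at 3.19 ± 2.29 CPM in overexpression and 1.11 ± 0.46 CPM in controls, with groups that overlapped. The immediate early factors Nr4a1 and Egr3, which neurons also switch on with activity, were lower on average, at 82.9 ± 16.3 and 119 ± 34.9 CPM in overexpression and 138 ± 44.9 and 176 ± 22.6 CPM in controls (SD, n = 3). Sele, the endothelial selectin, had too few counts for edgeR, with 38, 64 and 4 in overexpression libraries 1 to 3 and 0 in each control, and was looked at after its values were seen. DESeq2, which kept it, gave Sele an adjusted p of 0.00896.

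In the angiopoietin-Tie system, which stabilises vessels beside VEGF, 7 of 8 tested genes had a log2 fold change above 0, with a median of 0.27, and 0 reached an unadjusted p under 0.05. Leaving out control 3 gave a median of 0.093, leaving out overexpression library 2 gave 0.12, and DESeq2 gave 0.46. Angpt2, the ligand that loosens vessels, was at 1.93, 3.07 and 0.588 CPM in overexpression libraries 1 to 3 and 0.892, 0.385 and 0.831 CPM in controls 1 to 3. Overexpression library 3 lay inside the control range, while its receptor Tek had means of 15.6 ± 1.15 CPM in overexpression and 14.7 ± 4.36 CPM in controls (SD, n = 3). Among 11 Notch, tip cell and stalk cell genes, 6 were above 0 and 5 below, with a median of 0.0050. Nrarp, a Notch feedback gene of stalk cells, was lower in each overexpression library at 10.6 ± 1.15 CPM, against 16.7 ± 3.89 CPM in controls (SD, n = 3; unadjusted p = 0.0198, adjusted p = 0.822, edgeR).

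Of 28 genes of the hypoxia system, which drives Vegfa in many tissues, 19 had a log2 fold change above 0, with a median of 0.13, or 0.033 without control 1 and 0.27 without overexpression library 1. An unadjusted p under 0.05 was reached by Adm and by Slc2a1, the glucose transporter of brain endothelium, which is also among the endothelial markers. Slc2a1 was at 59.3, 136 and 87.1 CPM in overexpression libraries 1 to 3 and 46.2, 63.1 and 62.5 CPM in controls 1 to 3. Overexpression library 1 lay within the control range and overexpression library 2 was the highest, as it was for Vegfa and Flt1. By edgeR 0 genes of any of these lists passed over all genes.

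**Figure D5:**
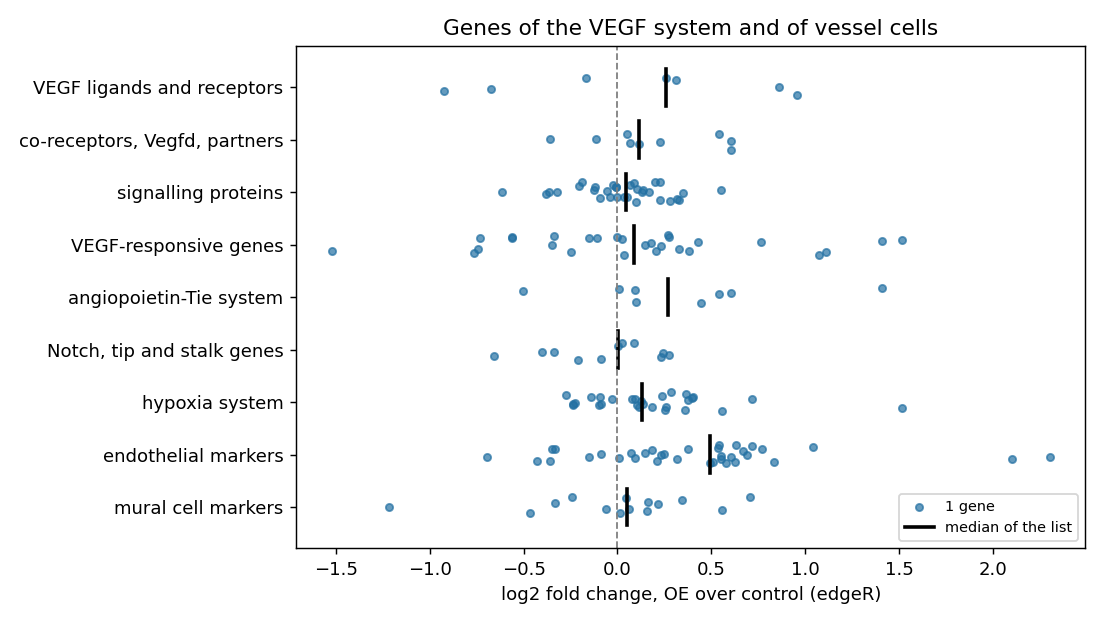
log2 fold change, overexpression over control, of each tested gene (points, with vertical scatter for display) in lists of the VEGF system and of vessel cells, with the median of each list (bar). Genes may stand in several lists. The endothelial markers have a median of 0.49 and the signalling proteins one of 0.044.

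Markers of other cells in the tissue were compared as well, beside 49.3% of all tested genes with a log2 fold change above 0. On the log2 scale the median change was 0.053 over 14 mural cell markers, 0.033 over 13 astrocyte markers and 0.0072 over 10 neuronal markers. It was -0.40 over 11 oligodendrocyte markers, all below 0, and -0.23 over 10 microglial markers, 9 of them below 0. Without control 2 it was 0.15 for mural, -0.21 for oligodendrocyte and 0.019 for microglial markers, so that the microglial median turned in sign. For mural markers it was below 0 when control 3 (-0.039) or overexpression library 2 (-0.033) was left out. Markers of infiltrating leukocytes, of which some kinds also express Flt1 or Vegfa, summed to 115, 218 and 34.6 TPM in overexpression libraries 1 to 3 and to 8.37, 11.6 and 10.5 TPM in controls 1 to 3. Of the 14 listed, 8 could be tested and all 8 had a log2 fold change above 0, with a median of 3.51 or 2.43 without control 2. Genes this low in controls could pass the count filter through the overexpression libraries alone, so their direction is not a separate result. When at least 1 CPM in 3 libraries was required the median was 0.76. It was 0.99 on log2(TPM + 1) and 2.77 with no filter. The list was led by the neutrophil genes S100a8 and S100a9, whereas Ly6g, which defines mouse neutrophils, had too few counts to test. Meningeal fibroblast markers summed to 1357, 1031 and 334 TPM in overexpression libraries 1 to 3 and to 395, 506 and 648 TPM in controls 1 to 3, and 11 of 12 had a log2 fold change above 0, with a median of 0.60. Choroid plexus markers summed to 9.89, 5.01 and 3.78 TPM in overexpression libraries 1 to 3 and to 3.22, 3.44 and 4.71 TPM in controls 1 to 3. Of the 10 listed, 7 were tested and all 7 had a log2 fold change above 0, with a median of 0.50. Genes this low could again pass the count filter through the overexpression libraries alone, so this direction is not a separate result. Without overexpression library 1 these medians were 0.18 for the meningeal and 0.072 for the choroid plexus list. The leukocyte sum was highest in overexpression library 2, the library with the highest Flt1, Flt4 and Vegfa. Overexpression library 1, at 115 TPM, had the lowest Vegfa of all 6 libraries (57.3 CPM). Against overexpression library 3, at 34.6 TPM, its Flt1 was lower (83.7 against 86.9 CPM) and its Flt4 higher (3.50 against 2.88 CPM). The part of these cells in the receptor and ligand values was not tested.

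The genes whose pattern over the 6 libraries was most like that of a member were sought among 11490 other named genes with a mean of at least 5 CPM. Likeness was the root mean square difference of log2 CPM after centring each gene on its mean, and the nearest are given as a description, 4 for Flt1 and 5 for Vegfa. For Flt1 they were B4galt1, a galactosyltransferase (difference 0.084), Adgrl4, an adhesion receptor of endothelial cells (0.13), the Wnt receptor Fzd7 (0.13) and Tlr7 (0.15). Adgrl4 stood at 36.0, 46.4 and 36.9 CPM in overexpression libraries 1 to 3 and 25.2, 18.3 and 20.7 CPM in controls 1 to 3. That it was higher in each overexpression library than in any control comes with its choice by likeness to Flt1. For Vegfa they were Syt2, a synaptic vesicle calcium sensor (0.073), Pdzd7 (0.096), Myrf, the transcription factor of myelinating oligodendrocytes (0.11), Vamp1, a synaptic vesicle protein (0.13), and Epha10 (0.14). Syt2, likewise chosen by its likeness, had the spread of Vegfa, at 40.1, 90.3 and 71.6 CPM in overexpression libraries 1 to 3 and 63.9, 48.4 and 64.4 CPM in controls 1 to 3, with overexpression library 1 the lowest.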

How the data were processed

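RNA from mouse tissue labelled auditory cortex was made into strand-specific TruSeq libraries, per the labels' protocols. Build mm10 and the tools STAR 2.5.3a, FastQC 0.11.5, DESeq 1.16.1 and Cuffnorm appear, with no role for each, per the submitters' processing notes. Which counter, annotation and strand setting were used is not stated. The authors deposited raw counts per gene and, for the same genes, TPM scaled to a common total per library. No member overlaps another gene in GENCODE M21. Columns were matched to samples by library name.

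Overexpression was compared with control by edgeR 4.0.16 (glmQLFit, glmQLFTest; R 4.3.3) on the counts of the 22360 genes kept by filterByExpr (minimum count 10), with TMM factors and Benjamini-Hochberg adjustment over all of them. SE is the log2 fold change over the square root of F. DESeq2 1.42.0, limma 3.58.1, other scaling factors and filters, TPM scales and left-out libraries were alternatives, and the code was tested on simulated data. The implied transcript length is counts over TPM, scaled to 1058 genes with 1 GENCODE transcript and at least 200 counts in each library, of which 48.8 to 49.5% lay within 5% of their annotated length. Promoters are from RefSeq (GRCm38.p6).

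The members and all gene lists were chosen with earlier results of these data known. The text names the 7 members, Wnt3, and from each list genes among the 3 of smallest p or the 2 of highest mean TPM, and genes among the 5 nearest in pattern to Flt1 and Vegfa, of which 1 is not reported here; Pecam1, Cldn5, Sele, Tbr1, Cux2, Drd1, Drd2, Adora2a and Ly6g are named as markers or were chosen after their values were seen.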

Additional observations from a re-analysis of the deposited data

How the results depend on the processing

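No member passed an adjusted p of 0.05 under any of the alternatives run, nor at 0.1 in edgeR; DESeq2 gave Flt1 0.0985. DESeq2 called 64 genes in all (36 higher, 28 lower), against 0 by edgeR and limma voom. The log2 fold change of Kdr turned positive, at 0.052 on log2(TPM + 1), also when genes under a mean of 0.5 TPM were left out, at 0.081 on log2(TPM + 0.1), and at 0.073 without control 1. On these TPM scales the median over all genes moved to 0.14, 0.18 and 0.22, and Kdr lay under it; of genes at an unadjusted p under 0.05, 75.8%, 76.1% and 73.3% were higher, against 39.9% with edgeR. The other members kept their sign in each alternative, Flt1 between 0.84 and 1.07 in those with all 6 libraries. The value of 1.07 was on log2(TPM + 0.1), where Flt1 less the median over all genes was 0.85.

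With single libraries left out, edgeR called 0 genes each time, and 619 (without overexpression library 1) to 1767 (without control 3) had an unadjusted p under 0.05, against 1040. The ranges of log2 fold changes were 0.66 to 0.96 for Flt1, -0.28 to 0.073 for Kdr, 0.63 to 1.14 for Flt4, 0.033 to 0.53 for Vegfa, -1.19 to -0.48 for Vegfb, -0.91 to -0.17 for Vegfc and 0.016 to 1.07 for Pgf. Relative to endothelial markers they were 0.31 to 0.45 for Flt1, -0.72 to -0.39 for Kdr and 0.30 to 0.60 for Flt4. Over all alternatives, other methods, filters and TPM scales included, 51 of 306 recomputed list medians moved by more than the spread between libraries.

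The deviations of same-numbered libraries from their group means had correlations of 0.059, -0.020 and -0.010. With 3 libraries per group, such values cannot tell whether samples were paired. With the replicate number as a block, edgeR called 0 genes, with 751 at an unadjusted p under 0.05; Flt1 had a log2 fold change of 0.84 and Flt4 0.91, and 1 member, Flt1, had an unadjusted p under 0.05. The members with the fewest reads were Pgf, at 33 to 120 per library, Vegfc, at 70 to 213, and Flt4, at 80 to 349.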
